A study of Mus musculus with 12 samples.

Results

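The 10 heat shock genes described here were taken by name from the caput epididymis transcriptome: Hspa1l, Hspa2, Hspa4l, Hspa5, Hspa8, Hsp90aa1, Hsp90ab1, Hsp90b1, Dnajb1 and Hsf1. They account for 12 of the 28344 RefSeq transcript rows and for 10 of the 22021 genes of that table. By textbook knowledge 3 of them are germ-cell forms (Hspa1l, Hspa2 and Hspa4l) and 7 are used by somatic cells. Levels are RPKM, reads scaled to transcript length and to the reads of the library, and all 10 genes reached 1 RPKM in one library or both, so all were compared.

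The study set C57BL/6 mice labelled as Gpx5 knockouts (Gpx5-/-, KO) against wild-type (WT) mice of the same strain. GPX5 is a glutathione peroxidase that the caput epithelium secretes onto maturing sperm. At 13 months, tissue of 7 KO mice and of 7 WT mice was pooled per genotype, which gave 1 caput transcriptome library each and 1 small RNA library each (18 to 40 nt) of testis, caput, corpus and cauda. A caput pair at 2 months was measured for small RNAs alone, and the labels do not give its number of mice. Testis and corpus went straight to extraction, whereas caput and cauda were first punctured in buffer so that spermatozoa could swim out. With 1 library per genotype there is no replicate, so no test between genotypes was possible. The intervals below are 95% intervals that cover counting error only, and reads of PCR-amplified libraries are not independent molecules.

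HSP70 chaperones bind unfolded stretches of client proteins and release them as they split ATP. J proteins such as DNAJB1 start that cycle, and HSP110 proteins help to reset it. HSP90 chaperones act later, on clients that are close to their active fold, and HSF1 is the transcription factor that switches on many of these genes under heat. Male germ cells carry chaperones of their own: mouse HSPA2 is needed for meiosis, HSPA1L is made in spermatids, and mouse HSPA4L, an HSP110 protein, supports sperm production.

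The targeted gene and the cell type markers were compared first in the transcriptome libraries, which held 13929327 reads in KO and 14348655 in WT. Gpx5 was at 918 RPKM in KO caput, against 8474 RPKM in WT caput, a log2(RPKM + 1) difference of -3.21. Its transcript was thus lower but still abundant in KO caput, at rank 58 of 22021 genes by level, against rank 1 in WT caput, and which part of the gene the reads cover was not analysed here. Markers of sperm and spermatids were lower in KO for 22 of 22 genes. They summed to 201 RPKM in KO (0.240 to 51.7 per gene), against 13027 RPKM in WT (9.57 to 2745). Spermatocyte markers were lower for 19 of 20, with sums of 31.8 RPKM in KO and 1836 RPKM in WT. Leydig cell markers were lower for 6 of 7, with sums of 11.9 RPKM in KO and 363 RPKM in WT, and Sertoli cell markers for 6 of the 7 tested, with sums of 9.997 RPKM in KO and 41.3 RPKM in WT. Fshr, which marks Sertoli cells, was listed at 0 in KO and at 0.236 RPKM in WT. It stayed below 1 RPKM in both and was not among those tested. No germ-cell or Leydig marker was at 0 in either library. Leydig and Sertoli cells belong to the testis and not to the epididymis, so WT caput held transcripts of testis cell types as well as of sperm. Markers of caput secretory cells were higher for 20 of 30, with a median difference of 1.13. These marker levels move with the differences in the caput transcriptome, and their part in them was not tested. In the small RNA libraries they were not analysed here. In bulk tissue, fewer cells of a type and less RNA per cell cannot be told apart.

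Of the 10 heat shock genes, 5 were lower in KO caput by at least 2-fold on the log2(RPKM + 1) scale, and 0 were higher. Of all 15000 genes that reached 1 RPKM, 22.1% were lower and 2.77% were higher by the same limit, or 3321 and 415 genes. Centred on the secretory marker list, whose median shift was 1.13, these genes became 8096 lower and 8 higher, and 6 heat shock genes were lower. In the authors' deposited table, a GFOLD value (the authors' conservative log2 fold change) of -1 or less was given to 5 of the 10 genes and to 20.2% of all tested genes. A GFOLD value of 1 or more was given to 0 of the 10 and to 1.69% of all. The 5 genes below the limit were the 3 germ-cell genes and, of the 7 somatic genes, Hsp90aa1 and Dnajb1. Genes of both textbook classes were thus lower, and whether the fall goes with expression in germ cells was not tested.

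**Figure D1:**
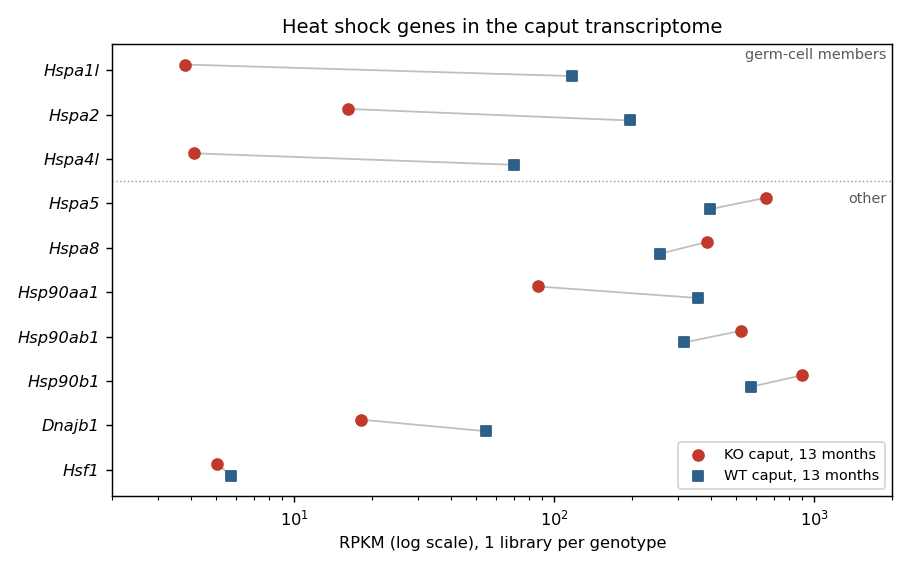
RPKM of the 10 heat shock genes (log axis) in caput at 13 months, with circles for the KO library and squares for the WT library, 1 library each. The KO circles of Hspa1l, Hspa2, Hspa4l, Hsp90aa1 and Dnajb1 lie left of their WT squares by at least 2-fold, and those of Hspa5, Hspa8, Hsp90ab1 and Hsp90b1 lie to the right by less than 2-fold, an order that turns once centred on the caput secretory markers.

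The germ-cell chaperones were compared first. Hspa1l (NM_013558) was at 3.81 RPKM in KO, against 117 RPKM in WT, from 128 and 4056 recovered reads. That is a 30.8-fold lower level in KO (25.8 to 37.0; log2 difference -4.62), the lowest difference of the 10. The gene ranked 9264 of 22021 genes by level in KO caput and 450 in WT caput.

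Hspa2 was at 16.2 RPKM in KO and 195 RPKM in WT by transcript NM_001002012, from 568 and 7073 reads. Its level was 12.1-fold lower in KO (11.1 to 13.2; log2 difference -3.52). The second transcript, NM_008301, had 15.9 RPKM in KO and 193 RPKM in WT, a difference of -3.52 as well. The 2 rows belong to the same gene and are no independent measurements. Hspa2 ranked 3405 in KO and 230 in WT.

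Hspa4l (NM_011020) was at 4.14 RPKM in KO and 70.3 RPKM in WT, from 205 and 3587 reads. It was 17.0-fold lower in KO (14.8 to 19.6; log2 difference -3.79). The 3 germ-cell genes together summed to 24.1 RPKM in KO and 383 RPKM in WT, with a median difference of -3.79, against 0.05 over all 15000 genes tested (quartiles -0.81 and 0.46). Sperm and spermatid markers had a median of -5.48 and spermatocyte markers of -4.77, and their part in the fall of the 3 genes was not tested. Among the genes nearest to Hspa2 in log2(RPKM + 1) over the 2 libraries, out of 10537 genes at 5 RPKM or more in a library, were Tmsb10 (13.98 RPKM in KO, 169 RPKM in WT; distance 0.287) and Bag5 (14.8 RPKM in KO, 157 RPKM in WT; distance 0.337). Bag5 is an exchange factor of HSP70.

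The constitutive cytosolic HSP70, Hspa8 (NM_031165), went the other way and stayed under the limit. It was at 386 RPKM in KO and 256 RPKM in WT, from 11312 and 7720 reads, a KO over WT ratio of 1.51 (1.47 to 1.55; log2 difference 0.59). Centred on the secretory markers, the difference was -0.53. Its nearest genes were Cox6c (distance 0.0730), Cd52 (0.124) and Rpl36al (0.175).

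The HSP70 members outside the ER, Hspa8, Hspa2 and Hspa1l, therefore had a different make-up in the 2 libraries. Other HSP70 genes are not in their sum. Among these, Hspa1a, Hspa1b and Hspa14 were at 11.9, 15.5 and 16.4 RPKM in KO, against 12.5, 12.2 and 14.0 RPKM in WT. Of the summed RPKM of Hspa8, Hspa2 and Hspa1l, which was 406 in KO and 568 in WT, Hspa8 made up 95.1% in KO and 45.0% in WT. Hspa2 made up 3.98% in KO and 34.4% in WT, and Hspa1l 0.937% in KO and 20.6% in WT. The germ-cell forms together thus outweighed Hspa8 in WT caput and not in KO caput.

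HSP90 showed the same kind of shift between its cytosolic isoforms. Hsp90aa1 (NM_010480), the inducible isoform, which mouse male germ cells need for meiosis, was at 86.7 RPKM in KO and 358 RPKM in WT, from 3441 and 14648 reads. It was 4.13-fold lower in KO (3.98 to 4.29; log2 difference -2.03). Hsp90ab1 (NM_008302), the constitutive isoform, was at 522 RPKM in KO and 317 RPKM in WT, from 18217 and 11393 reads. Its KO over WT ratio was 1.65 (1.61 to 1.69; log2 difference 0.72), under the limit, and its difference was -0.41 once centred on the secretory markers. Hsp90aa1 was 0.166 of the Hsp90ab1 level in KO and 1.13 of it in WT. As a share of the 2 isoforms, whose sum was 608 RPKM in KO and 675 RPKM in WT, Hsp90aa1 made up 14.2% in KO and 53.1% in WT.

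**Figure D2:**
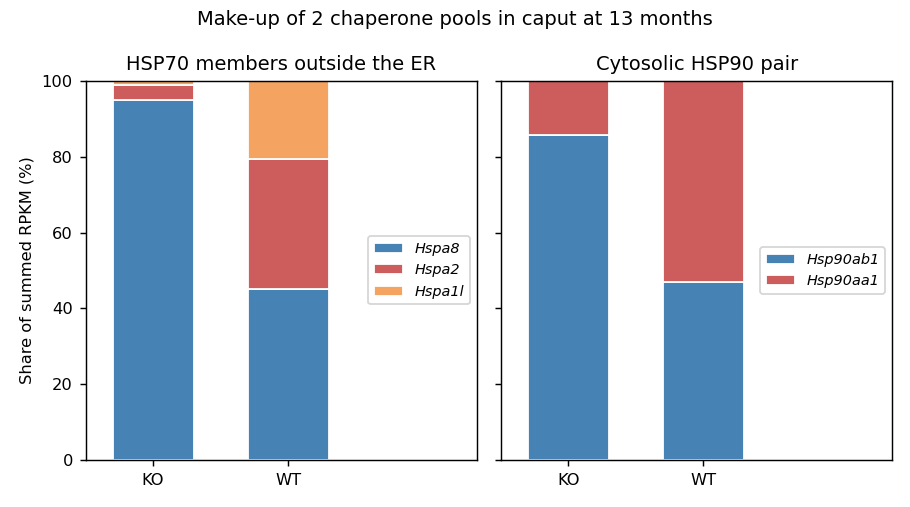
Stacked shares (%) of the summed RPKM of Hspa8, Hspa2 and Hspa1l (left panel) and of Hsp90ab1 and Hsp90aa1 (right panel), with the KO bar left of the WT bar, 1 caput library each at 13 months. Hspa8 fills 95.1% of its KO bar and 45.0% of its WT bar, and Hsp90ab1 fills 85.8% of its KO bar and 46.9% of its WT bar.

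The J protein Dnajb1 (NM_018808), which hands clients to HSP70, was at 18.1 RPKM in KO and 54.5 RPKM in WT, from 571 and 1772 reads. It was 3.01-fold lower in KO (2.74 to 3.32; log2 difference -1.54). The regulator Hsf1 (NM_008296) was at 5.05 RPKM in KO and 5.73 RPKM in WT, from 142 and 166 reads. Its ratio of 0.881 had an interval of 0.699 to 1.11, so no difference was detectable beyond counting error. Hsf1 was the least abundant of the 10 in WT caput.

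The chaperones of the endoplasmic reticulum (ER) were the most abundant of the set in both libraries. Hspa5 (NM_001163434), the ER-resident HSP70 also known as BiP, was at 653 RPKM in KO and 397 RPKM in WT, from 23042 and 14424 reads, a ratio of 1.65 (1.61 to 1.68; log2 difference 0.72). Its second transcript, NM_022310, had 640 RPKM in KO and 388 RPKM in WT. Hsp90b1 (NM_011631), the ER form of HSP90 also known as GRP94, was at 899 RPKM in KO and 571 RPKM in WT, a ratio of 1.57 (1.55 to 1.60; log2 difference 0.65). Both stayed under the 2-fold limit, and centred on the secretory markers their differences turned to -0.41 for Hspa5 and -0.47 for Hsp90b1. The 2 genes kept a near-constant proportion: Hsp90b1 was 1.38 of the Hspa5 level in KO and 1.44 of it in WT.

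The promoters of these ER genes are printed because both hold the ER stress response element, which was searched on both strands as CCAAT and CCACG with 9 bases between them and is in capitals. The letters are RefSeq's on GRCm38.p6, from 250 bases before the annotated start up to that start, in the direction of the gene, chr2:34771840-34772089 (plus strand) for Hspa5 and chr10:86705445-86705694 (minus strand) for Hsp90b1.
Hspa5: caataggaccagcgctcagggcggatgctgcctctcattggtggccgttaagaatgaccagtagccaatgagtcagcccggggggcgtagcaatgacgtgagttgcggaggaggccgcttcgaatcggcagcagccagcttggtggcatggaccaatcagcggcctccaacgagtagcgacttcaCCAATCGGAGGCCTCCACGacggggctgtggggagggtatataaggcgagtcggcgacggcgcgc
Hsp90b1: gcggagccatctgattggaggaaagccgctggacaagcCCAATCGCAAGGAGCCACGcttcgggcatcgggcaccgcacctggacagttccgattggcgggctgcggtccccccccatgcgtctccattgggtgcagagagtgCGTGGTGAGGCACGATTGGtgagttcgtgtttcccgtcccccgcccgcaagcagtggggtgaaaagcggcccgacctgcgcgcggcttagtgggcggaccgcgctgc

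Hspa5 has 1 match and Hsp90b1 has 2, of which the one nearer the start lies on the opposite strand. The element is in 39 of 32841 RefSeq promoter windows (0.119%), and it was searched after the sequences had been read. The windows of Hspa1l, Hspa2, Hspa4l and Dnajb1 held none. The heat shock element was searched as GAANNTTC on both strands, which 7.86% of all windows hold, and in a longer form with a further GAA 2 bases after it, which overlaps the shorter one and is in 0.603%. Neither was found in the 7 windows of the 6 genes with an entry, which says only that these letters are not in these windows. Hspa8, Hsp90aa1, Hsp90ab1 and Hsf1 were not analysed here for promoter sequence.

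The wider ER list held 28 genes of protein folding and the unfolded protein response. Their differences ran from -0.87 for Ddit3 (15.5 RPKM in KO, 29.0 RPKM in WT) to 1.13 for Dnajc10. Of these genes 1 was higher, 0 were lower and 27 passed neither limit, beside 2.77% higher and 22.1% lower among all tested genes. A positive difference was found for 25 genes of the list. The median was 0.59, or -0.54 when centred on the secretory markers, against 0.05 over all genes. Dnajc10, an ER J protein that reduces disulfide bonds, was the one past the limit, at 247 RPKM in KO and 112 RPKM in WT (log2 difference 1.13). The calcium-binding lectin chaperone Calr had 1046 RPKM in KO and 644 RPKM in WT (0.70), the disulfide isomerase Pdia6 had 217 RPKM in KO and 115 RPKM in WT (0.92), and P4hb had 452 RPKM in KO and 247 RPKM in WT (0.87). The ER stress element was in 6 of the 22 list genes that have a promoter window, Calr, Canx, Pdia6, Creld2, Dnajc3 and Syvn1, whose differences ran from 0.04 for Creld2 to 0.92 for Pdia6.

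The germ-cell chaperones beyond the 3 described above were mostly lower too, and several of them also stand in the family lists that follow. Of 18 genes 16 were lower and 0 were higher, beside 22.1% lower and 2.77% higher among all tested genes. The list had a median difference of -4.87 and sums of 72.9 RPKM in KO and 1458 RPKM in WT. The small heat shock protein Hspb9 was at 5.14 RPKM in KO and 247 RPKM in WT. The sperm J proteins Dnajb3 and Dnajb8 were at 2.33 and 1.52 RPKM in KO, against 177 and 129 RPKM in WT. Odf1, a small heat shock protein of the sperm tail, was at 13.3 RPKM in KO and 340.5 RPKM in WT, and Fkbp6 was listed at 0 in KO. This list is itself one of germ-cell genes, and Odf1 is also one of the sperm and spermatid markers above. The direction of the list thus goes with those markers in part by its make-up, and their part in it was not tested.

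The lists of other HSP70 and HSP110 genes, HSP90 co-chaperones and HSP70 exchange factors stand beside 22.1% lower and 2.77% higher among all tested genes. Of 10 other HSP70 and HSP110 genes 2 were lower and 0 higher, with a median of -0.16; Hsph1, a cytosolic HSP110, was at 4.995 RPKM in KO and 12.6 RPKM in WT (-1.19), and the mitochondrial HSP70 Hspa9 was at 78.9 RPKM in KO and 95.1 RPKM in WT (-0.27). Hspa13 had 45.5 RPKM in KO and 26.9 RPKM in WT (0.74), and Hyou1, the HSP110 of the ER, 71.2 RPKM in KO and 56.7 RPKM in WT (0.32). Of 19 HSP90 co-chaperones 2 were lower and 0 higher (median -0.14). Fkbp4, an immunophilin of the steroid receptor complex, had 153 RPKM in KO and 178 RPKM in WT (-0.22), its relative Fkbp5 had 102 RPKM in KO and 50.6 RPKM in WT (0.99), and Ttc4 had 13.1 RPKM in KO and 42.1 RPKM in WT (-1.61). Of 12 HSP70 exchange factors 2 were lower and 0 higher (median -0.20), among them Bag5 (-3.32) and Bag6 (-1.83). Bag1 had 111 RPKM in KO and 155 RPKM in WT (-0.47), and St13, a cofactor of HSP70, had 92.3 RPKM in KO and 114 RPKM in WT (-0.30). The counts in these 3 lists stand beside a background of 22.1% lower among all genes, and nothing is read from them.

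The remaining chaperone families are given beside the same background of 22.1% lower. Of 16 J proteins of classes A and B, 7 were lower and 0 higher (median -0.53). Of 27 class C J proteins, 8 were lower and 1 was higher, with a median of 0.00 that became -0.045 when centred on all genes and -1.12 when centred on the secretory markers. Dnajc5b, a cysteine string protein of the testis, was at 0.690 RPKM in KO and 55.9 RPKM in WT, and its relative Dnajc5g at 0.0459 RPKM in KO and 25.7 RPKM in WT (-4.68). The mitochondrial Dnajc15 was at 39.8 RPKM in KO and 143 RPKM in WT (-1.82). Of 11 chaperonin genes 4 were lower and 0 higher (median -0.62). Cct6b, the testis form of a subunit of the CCT ring, was at 0.973 RPKM in KO and 71.8 RPKM in WT, and the subunit Cct5, which all cells use, was at 106 RPKM in KO and 163 RPKM in WT (-0.62). The other 3 lower genes are general CCT subunits as well: Tcp1 was at 69.9 RPKM in KO and 209 RPKM in WT (-1.57), and both Cct3 and Cct7 had a difference of -1.09. Of 8 small heat shock proteins tested 3 were lower and 0 higher (median -0.48).

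Besides Hsf1, the heat shock factor list held 5 tested genes: Hsf2, Hsf5 and Hsfy2, and Hsf2bp and Hsbp1, which bind heat shock factors. Of these 3 were lower and 0 higher, beside 22.1% lower and 2.77% higher among all tested genes. The list median of -2.29 is the value of Hsf2bp. Hsf2 was at 3.86 RPKM in KO and 6.48 RPKM in WT (-0.62), inside the limit. Hsf5 was at 0.535 RPKM in KO and 26.3 RPKM in WT, and Hsfy2 at 0.154 RPKM in KO and 37.7 RPKM in WT. Hsbp1, which binds HSF1, was at 51.5 RPKM in KO and 100.3 RPKM in WT (-0.95), inside the limit. Of 14 immediate early genes, which cells switch on quickly under stress, 0 were higher and 1 was lower, beside the same background. Their median of 0.50 turned to -0.62 when centred on the secretory markers. Among them Egr2 had 67.1 RPKM in KO and 36.1 RPKM in WT (0.88), and Ier3 11.9 RPKM in KO and 6.65 RPKM in WT (0.75).

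**Figure D3:**
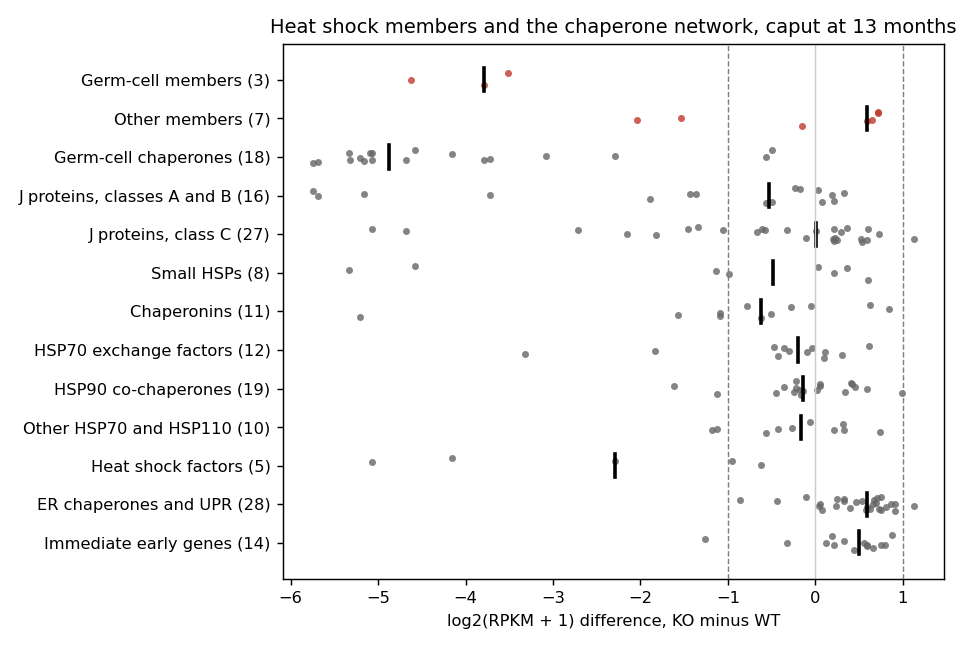
Difference in log2(RPKM + 1), KO minus WT, for each tested gene (points) of the heat shock set and of 11 lists of related genes (number tested in brackets), caput at 13 months, 1 library per genotype. Black bars are medians and dashed lines the 2-fold limits; the germ-cell members lie between -4.62 and -3.52, and the ER list centres on 0.59, which is -0.54 when centred on the caput secretory markers.

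The small RNA libraries gave a second readout of these genes, the reads whose matched entry was one of their RefSeq mRNAs. The libraries held 3855476 to 29049669 classified reads, and levels are given as reads per 1000000 of them (RPM). In testis, all 10 genes together had 249 such reads in KO and 226 in WT, a KO over WT ratio of 0.960 (0.798 to 1.15) that does not exceed counting error. In caput at 13 months they had 165 reads in KO and 237 in WT, a ratio of 0.524 (0.427 to 0.642). All mRNA-class reads of that pair had a ratio of 0.245 (0.243 to 0.246). As a share of mRNA-class reads the heat shock genes were therefore higher in KO caput, 0.106% against 0.0497% in WT, so the direction depends on the base.

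Hspa2 gave the most fragments of any of the 10 in both testis libraries. It had 89 reads in KO testis (9.05 RPM, 7.27 to 11.1) and 110 in WT testis (12.8 RPM, 10.6 to 15.5), a ratio of 0.705 (0.527 to 0.941). In caput at 13 months it had 2 reads in KO (0.109 RPM, 0.0132 to 0.393) and 31 in WT (2.24 RPM, 1.52 to 3.18), a ratio of 0.0486 (0.00563 to 0.191). The caput gap was thus in the same direction as that of the mRNA, and the log2 ratio of -4.36 became -2.33 with mRNA-class reads as the base and -2.15 in distinct sequences. Corpus held 7 reads in KO and 11 in WT, a ratio of 2.21 (0.727 to 6.25), and cauda 2 in KO and 5 in WT, a ratio of 0.574 (0.0547 to 3.51). Neither of these differences exceeded counting error. In both 2-month caput libraries no Hspa2 read was listed, where 3 counts would be 0.391 RPM in KO and 0.778 RPM in WT.

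The Hspa2 fragments of testis were mostly 24 to 32 nt long and mostly began with T. Of the mRNA-strand reads, 84.1% in KO testis (74.8 to 91.0) and 81.8% in WT testis (73.3 to 88.5) were 24 to 32 nt long, and 83.0% in KO testis and 77.3% in WT testis began with T. In WT caput the shares were 73.3% (54.1 to 87.7) and 83.3% (65.3 to 94.4) of 30 reads. The 2 reads of KO caput were neither 24 to 32 nt long nor began with T. The length range was not particular to Hspa2. For all heat shock members together, Hspa2 included, 87.0% of reads in KO testis and 84.8% in WT testis were 24 to 32 nt long. The share beginning with T was 63.4% in KO testis and 63.4% in WT testis. The same shares over all mRNA-class reads were not analysed here.

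Grouped by their first 18 bases, 3 of the 6 families with the most reads over all libraries came from Hspa2 and 3 from Hspa5. The Hspa2 families are shown because they carry much of the testis signal, the first and the third also as their most frequent whole fragment; the capital marks the first base.
Hspa2 family A: Tataagaaccagaagccc
Hspa2 family A, whole fragment: Tataagaaccagaagccccgtagaggtc
Hspa2 family B: Tatcggcatcgacctggg
Hspa2 family C: Taagatgaaggagatcgc
Hspa2 family C, whole fragment: Taagatgaaggagatcgccgaagcct

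Family A begins 12 bases into the transcript, and its whole fragment lies at chr12:76404381-76404408 of GRCm38.p6 (plus strand). It had 14 reads in KO testis and 27 in WT testis, of which the whole fragment made up 11 in KO and 12 in WT. Family B had 12 reads in KO testis and 27 in WT testis, and 0 in KO caput and 5 in WT caput. Family C went the other way in testis, with 22 reads in KO and 0 in WT, while KO caput held 0 and WT caput 3. Its whole fragment was read 17 times in KO testis and 0 times in WT testis. Single families thus differed between the testis libraries in both directions, and more than the sum of the gene did.

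Hsp90aa1 and Hsp90b1 were the next most frequent in testis. Hsp90aa1 had 44 reads in KO testis and 26 in WT testis (ratio 1.47, 0.888 to 2.49). In caput at 13 months it had 5 reads in KO and 11 in WT (ratio 0.342, 0.0932 to 1.07). With mRNA-class reads as the base its caput ratio was 1.40 (0.381 to 4.36), and neither caput ratio exceeded counting error. Hsp90b1 had 57 in KO testis and 35 in WT testis (ratio 1.42, 0.915 to 2.23). In caput, Hsp90b1 had 27 reads in KO (1.47 RPM) and 63 in WT (4.56 RPM), a ratio of 0.323 (0.198 to 0.514). With mRNA-class reads as the base this ratio became 1.32 (0.807 to 2.10), so its direction depends on the base, and the mRNA had a KO over WT ratio of 1.57. The share of Hsp90b1 reads at 24 to 32 nt was 33.3% in KO caput (16.5 to 54.0) and 66.7% in WT caput (53.7 to 78.0), and the share beginning with T was 7.41% in KO caput and 34.9% in WT caput.

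Hspa5 was the most frequent source of fragments in caput. It had 93 reads in KO caput (5.06 RPM, 4.09 to 6.20) and 89 in WT caput (6.44 RPM, 5.17 to 7.92), a ratio of 0.787 (0.582 to 1.06). Corpus held 28 in KO and 60 in WT (ratio 1.62, 0.997 to 2.58), cauda 33 in KO and 34 in WT (ratio 1.39, 0.836 to 2.32), and testis 32 in KO and 25 in WT (ratio 1.12, 0.640 to 1.96). None of these ratios exceeded counting error. With mRNA-class reads as the base the caput ratio became 3.21 (2.38 to 4.35) and that of cauda 0.886 (0.532 to 1.47), so both turned, and the log2 ratio of caput, -0.35 per classified reads, was 1.498 in distinct sequences. At 2 months, caput held 5 reads in KO and 0 in WT, where 3 counts would be 0.778 RPM.

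These Hspa5 fragments began with T less often than those of Hspa2 in testis and in WT caput. In testis most reads of both genes were 24 to 32 nt long. In caput 33.0% of the mRNA-strand Hspa5 reads in KO (23.5 to 43.6) and 51.7% in WT (40.8 to 62.4) were 24 to 32 nt long. The share beginning with T was 6.59% in KO caput and 13.5% in WT caput. In testis, 78.1% in KO and 79.2% in WT were of that length, and 31.3% in KO and 29.2% in WT began with T. Many Hspa5 reads lay at the start of the transcript, in the bases just after the printed promoter, and the 3 families are shown for their position.
Hspa5 family A: Cgagacaacactgacctg
Hspa5 family B: Actggccgagacaacact
Hspa5 family B, whole fragment: Actggccgagacaacactgacct
Hspa5 family C: Gatactggccgagacaac

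Family A begins at base 12 of the transcript (chr2:34772101-34772118 of GRCm38.p6, plus strand), and the whole fragment of family B at base 6 (chr2:34772095-34772117). The 3 families overlap one another. Family A had 16 reads in KO caput and 10 in WT caput, 6 in KO corpus and 11 in WT corpus, and 7 in KO cauda and 4 in WT cauda. Family B had 19 reads in KO caput and 15 in WT caput, and family C 6 in KO caput and 2 in WT caput. All 3 had 2 reads in KO testis and 2 in WT testis. Of mRNA-strand Hspa5 reads without a mismatch, those whose first 18 bases lay from 15 bases before to 50 bases after the annotated start made up 68.5% in KO caput (57.8 to 78.0) and 52.4% in WT caput (41.2 to 63.4). The shares were 89.3% in KO corpus and 81.5% in WT corpus, 66.7% in KO cauda and 40.0% in WT cauda, and 27.6% in KO testis, with 8 of 16 reads in WT testis. For Hspa2 the share was 20.6% in KO testis (11.7 to 32.1) and 41.0% in WT testis (30.3 to 52.3). For Hsp90b1 it was at most 8.33% in any 13-month library.

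The other members gave few fragments. Hsp90ab1 had 19 reads in KO caput and 20 in WT caput, Hspa8 had 11 in KO caput and 8 in WT caput, and neither ratio per classified reads exceeded counting error. With mRNA-class reads as the base they were 2.92 for Hsp90ab1 (1.48 to 5.77) and 4.23 for Hspa8 (1.55 to 12.1). Dnajb1 had 8 reads in KO testis and 16 in WT testis (ratio 0.436, 0.161 to 1.08), and 3 in KO caput and 11 in WT caput (ratio 0.205, 0.0368 to 0.777, or 0.839, 0.150 to 3.18, with mRNA-class reads as the base). Hspa1l, Hspa4l and Hsf1 had at most 7 reads in any library, and no ratio is given for them. Over all 10 genes at 2 months, KO caput had 5 reads and WT caput 1.

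**Figure D4:**
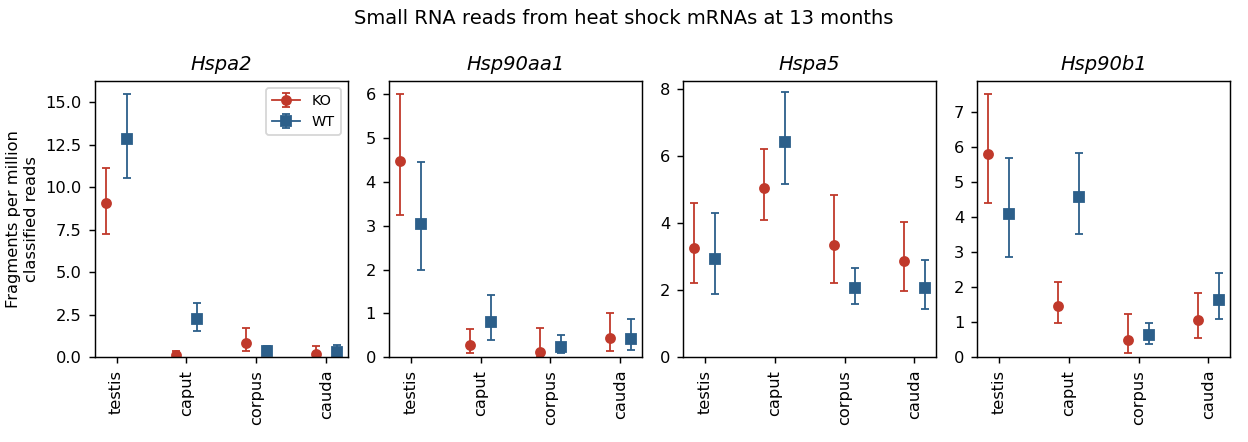
Fragments in RPM, reads per 1000000 classified reads, for Hspa2, Hsp90aa1, Hspa5 and Hsp90b1 in the 13-month testis, caput, corpus and cauda libraries, with KO circles left of WT squares and bars for the 95% Poisson counting interval, 1 library each. Hspa2 is at 0.109 RPM in KO caput and 2.24 RPM in WT caput, with intervals that do not overlap, whereas those of Hspa5 overlap in every tissue.

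**Figure D5:**
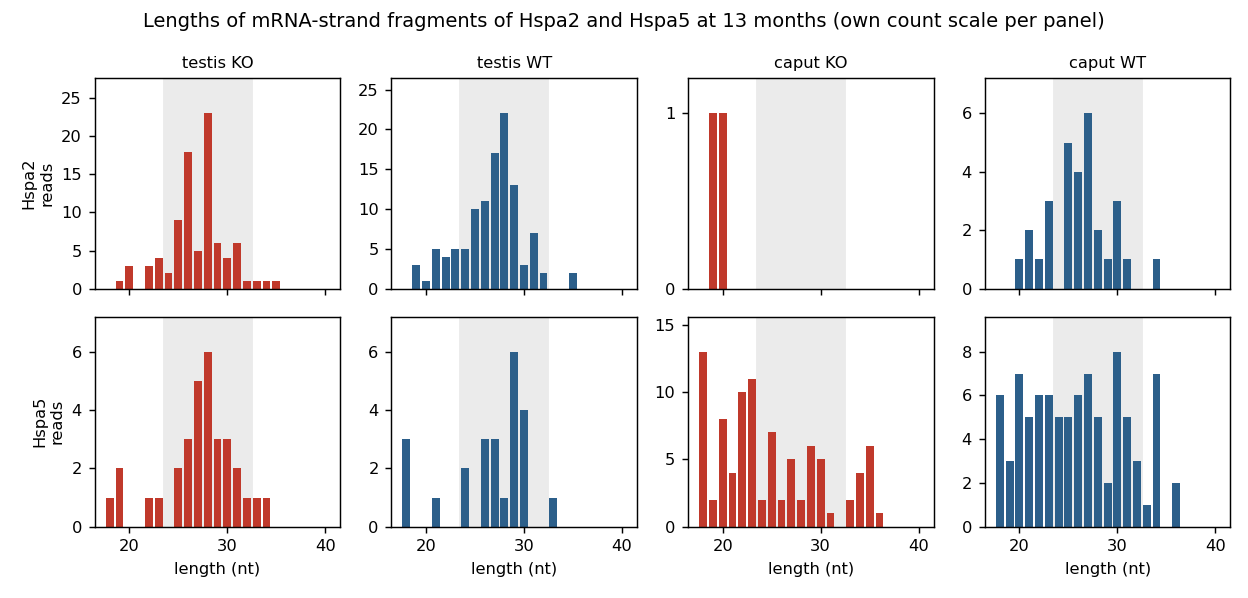
Lengths (nt) of mRNA-strand fragments of Hspa2 (top row) and Hspa5 (bottom row) in KO and WT testis and caput at 13 months, as read counts on a scale of their own in each panel, with 24 to 32 nt shaded. In testis, fragments of Hspa2 (84.1% in KO, 81.8% in WT) and of Hspa5 (78.1% in KO, 79.2% in WT) gather in the shaded range. Hspa5 fragments of caput spread beyond it (33.0% inside it in KO, 51.7% in WT).

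Counts of these genes carry limits of their own. HSP70 and HSP90 genes have close paralogs and processed copies among which reads can be split, so levels of single members are uncertain to that extent. In RefSeq, Hspa2 overlaps the lncRNA 4930426I24Rik, Hspa5 overlaps the gene Rabepk, and Hspa8 hosts Snord14c, Snord14d and Snord14e, and whether the counting used strand is not given in the sources used here.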

How the data were processed

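The authors deposited RPKM values per RefSeq transcript for both caput transcriptome libraries, with a log2 fold change, a GFOLD value and an empirical false discovery rate (E-FDR, a q-value column, kept here with p-values) that is 1 throughout and was not used; per the file headers these come from GFOLD 1.1.3. TopHat2, Bowtie 0.12.7 and build mm9 are listed, with no step given, per the submitters' processing notes. The small RNA files hold deposited counts of reads per distinct sequence with a matched entry, with up to 2 mismatches per the file headers. In both 2-month files, counts that a spreadsheet had turned into dates (5419 lines in KO, 5531 in WT) were read back from the month.

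A gene took the values of its transcript row with the highest mean RPKM. Differences are log2(RPKM + 1), KO minus WT, over genes that reached 1 RPKM; a gene counts as higher or lower from a difference of 1. Whole reads were recovered from RPKM and fold change with the transcript length that fits both. Of 3087 transcripts with up to 20 reads, 100% came out whole within 0.1 reads. Hsp90b1 had 2 solutions, so its reads are not given. Its interval uses the solution with the fewer reads, which gives the wider interval. Ratios have exact conditional binomial intervals, RPM Poisson intervals and shares Clopper-Pearson intervals, all at 95%; a count of 0 allows up to 3 counts. The read recovery and intervals were tested on simulated data. No count model was used, since each genotype has 1 library.

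Small RNA reads were assigned to a gene by the RefSeq accession of their entry; GenBank entries were not assigned to genes. Promoters and fragments were matched to RefSeq sequences of GRCm38.p6, which is not the files' build. Protein sequences were not analysed here. Members and lists were chosen with earlier results of these data known, and the ER stress element was added after the sequences had been seen. Named genes are the 10 members, Gpx5, per pathway list the 2 with the largest difference at 5 RPKM or more and the 2 with the highest mean, per cell type list the 3 with the highest mean, and the 3 genes nearest to Hspa2 and to Hspa8, of which 1 is not reported here; cell type lists are given as sums and counts in place of single genes. Canx, Creld2, Ddit3, Dnajc3, Syvn1, Cct3, Cct7, Fkbp6, Fshr, Hsf2, Hsf2bp, Hspa1a, Hspa1b and Hspa14 were named after their values were seen. Python 3.11.15, numpy 2.4.6, pandas 2.3.3, scipy 1.17.1 and matplotlib 3.10.9 were used.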

Additional observations from a re-analysis of the deposited data

Results flagged for a closer look

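Small RNA fragments of Dnajb1 had a KO over WT ratio of 0.205 in caput at 13 months (3 reads in KO, 11 in WT; 0.0368 to 0.777) and of 8.69 in corpus (5 reads in KO, 2 in WT; 1.42 to 91.3), so the genotypes lay in opposite orders in the 2 tissues. The corpus value rests on 5 and 2 reads. With mRNA-class reads as the base the ratios were 0.839 in caput (0.150 to 3.18) and 7.37 in corpus (1.21 to 77.4). Fragments of all 10 genes had a ratio of 0.524 in caput (0.427 to 0.642) and of 1.51 in corpus (1.08 to 2.08), again in opposite orders. With mRNA-class reads as the base they were 2.14 in caput (1.74 to 2.62) and 1.28 in corpus (0.913 to 1.77), in the same order in both tissues. The difference between the tissues was not tested, since each tissue and genotype has 1 library. All mRNA-class reads had ratios of 0.245 in caput and 1.18 in corpus.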

How the results depend on the processing

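No paired analysis was possible because each genotype has 1 library and no result comes from a test. Of 290 values under other settings, 237 counted as unchanged. They stayed on their side of the limit, within the counting interval or, for counts of genes, within a factor of 1.5. Of the 237, 5 had the other sign (fragment ratios, 0.015 to 0.79 in size on the log2 scale). The count of lower members was 5 under every setting but the secretory centring (6). Genes higher numbered 698 with a pseudocount of 0.1 RPKM and 190 with one of 5 RPKM, where 2073 were lower; 1004 by the authors' deposited log2 fold change and 253 by their GFOLD value. With a 1.5-fold limit 4 members and 2570 genes were higher. Centred on the caput secretory markers, 8 genes were higher and 8096 lower, the median of the 7 somatic members was -0.53, and the differences turned to -0.41 (Hspa5), -0.53 (Hspa8), -0.41 (Hsp90ab1) and -0.47 (Hsp90b1). List medians turned to -1.12 (class C J proteins, -0.045 when centred on all genes), -0.54 (ER list) and -0.62 (immediate early genes). For fragments of all 10 genes the log2 ratio in caput at 13 months was 1.098 with mRNA-class reads as the base, -1.42 with miRNA reads, -0.57 at 24 to 32 nt and 1.06 in distinct sequences. In corpus it was -0.082 in distinct sequences, and in cauda -0.62 with mRNA-class reads and -0.58 in distinct sequences. Beyond the construction of each setting, the cause was not tested. Without replicates, the spread between mice is unknown, and fragment counts under about 10 reads limit any statement on Hspa1l, Hspa4l, Hsf1 and, in corpus, Dnajb1.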
